A study of Mus musculus with 8 samples.

Results

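The BCL2 family genes examined were the 10 members *Bmf*, *Bcl2l11*, *Bbc3*, *Pmaip1*, *Bid*, *Bad*, *Bik*, *Bcl2*, *Bcl2l1* and *Mcl1*, picked by gene name from a table of 53465 genes. Their levels were read from 8 RNA-seq libraries of cultured mouse cells of pancreatic ductal adenocarcinoma (PDAC). Each of the lines used, B73 and B87, was derived from a primary tumor of a KC-shSmad4 mouse with *Ptf1a*-Cre (a pancreas driver), *Rosa26* LSL-rtTA3-IRES-mKate2 and, in the *Col1a1* locus, a doxycycline (Dox)-inducible, GFP-linked short hairpin RNA against *Smad4*, on a mixed C57BL/6J;129 background. Continuous Dox gave the Smad4-off state, and 5 days of culture without it the Smad4-on state. Each state was exposed for 24 h either to 100 pM TGFβ1 or to 2.5 µM SB505124, which inhibits the TGFβ type I receptor kinase. This gave 4 groups with 1 library of each line. The main tests include the line as a term, which removes constant differences between the lines. Their p-values for group differences therefore measure how far those differences varied between 2 lines. There was no untreated group, so a difference between TGFβ1 and SB505124 combines the action of the ligand with that of the inhibitor, and Dox itself and the Smad4 state cannot be told apart.

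The BCL2 family controls permeabilization of the mitochondrial outer membrane, the step that commits a cell to intrinsic apoptosis. Prosurvival members (BCL2, BCL-XL encoded by *Bcl2l1*, MCL1) hold the effectors BAX and BAK in check, and BH3-only proteins (the products of *Bmf*, *Bcl2l11*, *Bbc3*, *Pmaip1*, *Bid*, *Bad* and *Bik*) bind the prosurvival proteins or activate the effectors directly. TGFβ is known to cause apoptosis in many epithelial cells, with induction of BH3-only genes such as *Bmf* and *Bcl2l11* (encoding BIM) in several of them, and SMAD4 is the partner through which SMAD2 and SMAD3 act on most TGFβ target genes. Much of the family is also controlled by phosphorylation, cleavage and protein turnover, which RNA-seq does not measure. The study reports that its tumor-derived lines did not show the Smad4-dependent apoptosis that TGFβ causes in PDAC progenitors, at the times it examined.

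Libraries held 18389235 to 23440550 counts, so that 3 counts, the smallest number taken as detectable, equal 0.128 to 0.163 CPM (counts scaled to a common library total). In Smad4-off cells *Smad4* stood between 33.7 and 35.5 CPM, and in Smad4-on cells between 97.3 and 117 CPM. Ductal epithelial markers summed to 3940 to 6200 CPM in B73 and 1220 to 2110 CPM in B87. Among them *Epcam* was low in both lines, at 0.153 to 2.11 CPM. *Krt7* stood at 474 to 648 CPM in B73 and 12.6 to 28.7 CPM in B87. Acinar markers summed to 0.499 to 1.37 CPM, with 3 of 5 acinar genes at 0 in every library. Immune markers summed to 1.38 to 6.38 CPM, with 2 of 7 at 0 throughout and 4 of 7 at or under 3 counts throughout. Fibroblast markers also differed between the lines, at 3.99 to 8.92 CPM in B73 against 43.9 to 646 CPM in B87. Most of that was *Col1a1*, while *Lum* was at 0 and 3 of 7 genes stayed at or under 3 counts in all libraries. *Col1a2* differed the other way, at 1.8 to 3.01 CPM in B73 against 0 to 0.255 CPM in B87. In such bulk libraries, fewer cells of a kind and less RNA per cell cannot be told apart.

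Per kilobase of exon, the prosurvival gene *Mcl1*, whose short-lived product restrains BAK, was the highest member with a median over the 8 libraries of 60.6 CPM per kb. *Bcl2l1* followed at 41.4 CPM per kb, and *Pmaip1*, encoding the MCL1 antagonist NOXA, came next at 19.2. *Bid*, whose product is cleaved by caspase-8 to link death receptors to mitochondria, had a median of 12.0, and *Bad*, encoding a phosphorylation-controlled antagonist of BCL2 and BCL-XL, one of 10.1. *Bbc3*, encoding the p53 target PUMA, stood at 4.2 CPM per kb. *Bcl2* at 2.26 and *Bcl2l11* at 2.17 followed it and overlapped in range. The last in the order were *Bmf* at 0.196 and *Bik* at 0.0895 CPM per kb. In this order, neighbouring members overlapped in their range over the libraries from *Mcl1* down to *Bad* and again for *Bcl2* with *Bcl2l11* and for *Bmf* with *Bik*. *Bad* (8.7 to 11.1) did not overlap *Bbc3* (3.94 to 6.32), nor did *Bbc3* overlap *Bcl2* (1.73 to 2.55) or *Bcl2l11* (1.73 to 2.4) overlap *Bmf* (0.0554 to 1.37).

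**Figure D1:**
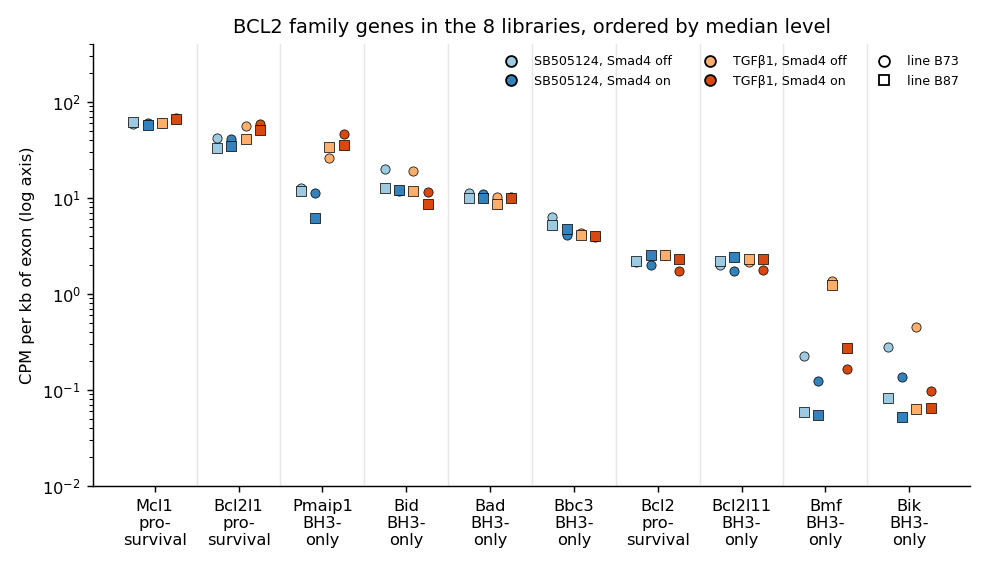
Level of each of the 10 members in CPM per kb of exon (log axis) in the 8 libraries, with genes ordered by their median; color gives treatment and Smad4 state, and circles and squares give lines B73 and B87. *Mcl1*, *Bad*, *Bcl2* and *Bcl2l11* form tight groups of points, whereas *Bmf* spans a 24.7-fold range and *Pmaip1* a 7.50-fold range.

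The members differed in how far they varied. The highest library exceeded the lowest by 24.7-fold for *Bmf* and 7.50-fold for *Pmaip1*, but by 1.20-fold for *Mcl1*, 1.27-fold for *Bad*, 1.39-fold for *Bcl2l11*, 1.47-fold for *Bcl2*, 1.6-fold for *Bbc3*, 1.76-fold for *Bcl2l1* and 2.31-fold for *Bid*. *Bik*, encoding a BH3-only protein of the endoplasmic reticulum, had 2 to 17 counts in any library and was not tested because it failed the filter on low counts. Its largest value, 17 counts in TGFβ1-treated Smad4-off B73 cells, was not matched in B87, where that group had 2 counts. The other 9 members were among the 14301 genes tested.

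*Bmf*, whose product is held at the cytoskeleton by a dynein light chain and released on detachment or stress, was high in 1 of the 4 groups. In TGFβ1-treated Smad4-off cells it had 168 counts (7.19 CPM) in B73 and 131 counts (6.52 CPM) in B87. In TGFβ1-treated Smad4-on cells it had 17 counts (0.867 CPM) in B73 and 28 counts (1.43 CPM) in B87. Under SB505124, Smad4-off cells had 24 counts (1.20 CPM) in B73 and 7 counts (0.307 CPM) in B87, and Smad4-on cells had 12 counts (0.648 CPM) in B73 and 7 counts (0.291 CPM) in B87. Both libraries of the TGFβ1-treated Smad4-off group therefore lay above all 6 others, and the other groups reached at most 1.43 CPM.

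The gene lies at chr2:118528757-118549687 on the minus strand (GRCm38). RefSeq gives it 3 transcript starts, and the 250 bases upstream of each are shown because *Bmf* is the member whose level changed with Smad4 state. The window of the outermost start overlaps the annotated *Bmf* exons by 1 base, and the other windows lie within the gene body outside its exons. Capitals mark CAGAC and its reverse complement GTCTG, the letters of the SMAD-binding element.
Bmf upstream window, chr2:118549687-118549936, minus strand: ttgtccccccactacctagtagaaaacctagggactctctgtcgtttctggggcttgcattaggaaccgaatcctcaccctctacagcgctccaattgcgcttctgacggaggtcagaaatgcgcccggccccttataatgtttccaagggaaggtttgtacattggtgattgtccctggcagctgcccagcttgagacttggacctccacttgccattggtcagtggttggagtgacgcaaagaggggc
Bmf upstream window, chr2:118547600-118547849, minus strand: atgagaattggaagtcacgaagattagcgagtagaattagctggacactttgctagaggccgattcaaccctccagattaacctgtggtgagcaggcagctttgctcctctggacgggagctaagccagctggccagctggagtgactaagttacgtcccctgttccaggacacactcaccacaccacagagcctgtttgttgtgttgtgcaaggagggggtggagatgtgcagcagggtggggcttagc
Bmf upstream window, chr2:118544588-118544837, minus strand: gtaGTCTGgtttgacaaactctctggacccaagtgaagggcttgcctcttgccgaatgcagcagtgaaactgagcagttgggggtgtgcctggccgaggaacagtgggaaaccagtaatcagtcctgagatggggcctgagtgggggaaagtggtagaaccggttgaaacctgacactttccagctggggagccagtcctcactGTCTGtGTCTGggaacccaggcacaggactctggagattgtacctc

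Read on both strands, the innermost window held the 5 letters 3 times and the other *Bmf* windows held none. Among all 32851 RefSeq windows of this length (GRCm38.p6), 42.2% hold at least 1 match, and 5 of the 16 windows of the 8 members with an entry did, including windows of *Bcl2l11*, *Bbc3* and *Bcl2l1*. The AP-1 letters TGANTCA were in none of the 16 windows and in 6.75% of all windows. The FOXO letters GTAAACA were in 2 of the 16, 1 of *Bcl2l11* and 1 of *Bbc3*, and in 3.17% of all windows. These matches describe the sequence only, and no binding was measured in these samples.

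Smad4-on and Smad4-off cells were compared within each treatment. The fall of *Bmf* under TGFβ1 was already known from these data when the members were chosen. Its call below therefore describes that fall again and is not a fresh test of it. Under TGFβ1, *Bmf* was the 1 member called among 9 tested, where called means an adjusted p under 0.05 and a change over 2-fold. It was 5.85-fold lower in Smad4-on cells (log2 fold change -2.55 ± 0.499 SE, edgeR quasi-likelihood adjusted p = 0.0318), and each line showed the fall (-2.92 for B73, -2.12 for B87). Of all 14301 genes, 3.12% were called in this comparison, 188 higher and 258 lower. *Bid* was 67.2 against 40.5 CPM in B73 and 42.1 against 30.9 CPM in B87 (Smad4 off against on), a log2 difference of -0.60 ± 0.173 SE that missed the threshold in the edgeR test (adjusted p = 0.0935). In DESeq2 with the line as a term the *Bid* difference had an adjusted p of 0.0353, still under 2-fold.

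The remaining members had log2 differences from -0.33 (*Bcl2*) to 0.43 (*Pmaip1*) under TGFβ1, with adjusted p values from 0.215 to 0.822 in edgeR. The median over the 9 tested members was -0.08, beside -0.01 over all tested genes. For *Bmf* the line term matters. In edgeR without it the adjusted p was 0.213, whereas DESeq2 without it gave 0.0228, and a test against the 2-fold threshold itself (glmTreat) gave 0.293. *Kdr*, a marker on the endothelial list, moved in the same direction as *Bmf*, with 141 and 506 counts in TGFβ1-treated Smad4-off cells of B73 and B87 against 10 and 51 counts in Smad4-on cells. The 5 endothelial markers summed to 7.24 and 26 CPM in the Smad4-off and to 3.47 and 4.94 CPM in the Smad4-on cells. *Cdh5*, encoding VE-cadherin, went the other way, with 23 and 16 counts in Smad4-off and 54 and 40 counts in Smad4-on cells, and it was the larger part of the sum in Smad4-on B73 cells (2.75 CPM). *Pecam1*, *Tek* and *Vwf* had at most 5 counts in any library, and the part of this list in the *Bmf* difference was not tested.

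Under SB505124, no member was called by edgeR (0 of 9 tested, 1 with an unadjusted p under 0.05) or by DESeq2 with the line (0 called), beside 1.09% of all genes. *Bmf* had a log2 difference of -0.66 ± 0.662 SE (adjusted p = 0.753), and *Bid* one of -0.41 ± 0.172 SE (edgeR adjusted p = 0.395). *Bid* was 71.4 against 42.2 CPM in B73 (Smad4 off against on), and 45.4 against 42.9 CPM in B87. The larger *Bid* difference was thus in B73, with per-line log2 differences of -0.76 in B73 and -0.08 in B87. The remaining members had log2 differences from -0.53 (*Pmaip1*) to 0.06 (*Bcl2*), with edgeR adjusted p values from 0.433 (*Bbc3*, -0.37) to 0.984 (*Bad*). The median over the 9 members was -0.05, beside 0.00279 over all genes.

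**Figure D2:**
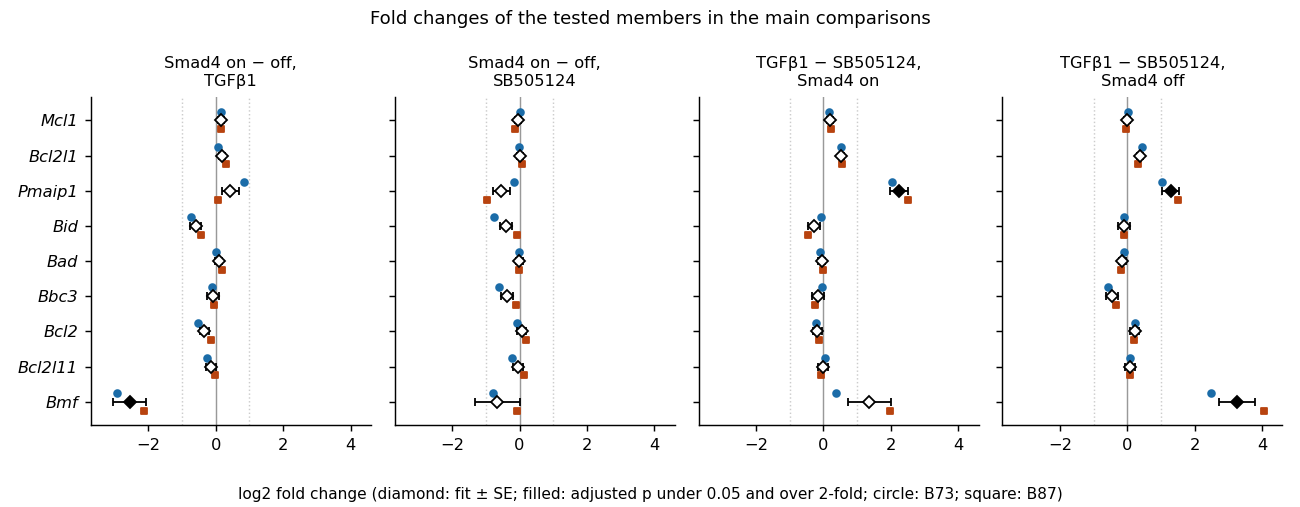
Log2 fold changes (x axis) of the 9 tested members in the Smad4 comparisons and the treatment comparisons. Diamonds give the edgeR fit with its SE, filled where the member was called, circles and squares give the change within B73 and B87, and dotted lines mark 2-fold. The filled diamonds are *Bmf* (-2.55 with Smad4 under TGFβ1, 3.26 with TGFβ1 in Smad4-off cells) and *Pmaip1* (2.25 and 1.29 with TGFβ1), and the other members lie inside the 2-fold lines, except *Bmf* with TGFβ1 in Smad4-on cells.

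TGFβ1 was compared with SB505124 within each Smad4 state to see which members follow receptor activity when *Smad4* is restored and when it is depleted. These comparisons share libraries with the Smad4 comparisons above. In Smad4-off cells, 2 of the 9 tested members were called, both higher with TGFβ1, beside 5.93% of all genes (445 higher and 403 lower). *Bmf* was 9.56-fold higher (log2 fold change 3.26 ± 0.525 SE, edgeR adjusted p = 0.01), by 2.50 in B73 and 4.04 in B87 on the log2 scale. *Pmaip1* rose in B73 from 34.6 to 70.1 CPM and in B87 from 32.6 to 91.8 CPM, a 2.44-fold difference (1.29 ± 0.256 SE, edgeR adjusted p = 0.0215). Both calls were lost in edgeR without the line (adjusted p = 0.0973 for *Bmf* and 0.11 for *Pmaip1*) and against the 2-fold threshold itself (glmTreat, 0.06 and 0.879), and DESeq2 without the line kept them.

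In Smad4-on cells, *Pmaip1* was the 1 member called among 9 tested, beside 13.9% of all genes (804 higher and 1189 lower). It rose in B73 from 30.6 to 126 CPM and in B87 from 16.8 to 96.5 CPM, and the 4.76-fold difference (2.25 ± 0.265 SE) had an edgeR adjusted p of 0.00116. All 4 TGFβ1 libraries lay above all 4 SB505124 libraries for *Pmaip1*, with the lowest TGFβ1 value at 70.1 CPM and the highest SB505124 value at 34.6 CPM. *Bmf* in Smad4-on cells had a log2 difference of 1.36 ± 0.631 SE that missed the threshold (edgeR adjusted p = 0.142), with 0.37 in B73 and 1.98 in B87. Dropping the filter on low counts, *Bmf* was called there as well (adjusted p = 0.0438).

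*Bcl2l1* passed the adjusted p in both Smad4 states while staying under 2-fold. Smad4-on cells had 187 CPM with SB505124 and 268 with TGFβ1 in B73, and 159 and 234 CPM in B87, a 1.45-fold difference (0.54 ± 0.0869 SE, edgeR adjusted p = 0.00414). Smad4-off cells had 190 and 256 CPM in B73 and 152 and 189 CPM in B87, a 1.29-fold difference (0.37 ± 0.0868 SE, edgeR adjusted p = 0.0345). Within each line, TGFβ1 libraries were thus the higher ones in both states, although the line B87 with TGFβ1 and Smad4 off (189 CPM) did not exceed B73 with SB505124 (190 CPM). Without the line in the model the edgeR adjusted p was 0.116 with Smad4 on and 0.383 with Smad4 off.

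*Mcl1* was 207 and 234 CPM in B73 and 195 and 226 CPM in B87 (SB505124 then TGFβ1, Smad4 on), a log2 difference of 0.20 ± 0.0769 SE with an edgeR adjusted p of 0.0932. In Smad4-off cells its difference was -0.01 ± 0.0769 SE (adjusted p = 0.951), and its sign turned in other fits. *Bbc3* was lower with TGFβ1 in Smad4-off cells by 0.45 on the log2 scale in the fit, at 13.4 against 9.08 CPM in B73 and 11.1 against 8.76 CPM in B87 (SB505124 against TGFβ1), and missed the threshold (edgeR adjusted p = 0.133). For *Bcl2l11*, the BH3-only gene whose product binds every prosurvival member, the libraries ran from 13.9 to 19.3 CPM, and its log2 differences with TGFβ1 were -0.02 ± 0.142 SE with Smad4 on and 0.08 ± 0.141 SE with Smad4 off (edgeR adjusted p = 0.943 and 0.752). *Bid* had log2 differences with TGFβ1 of -0.28 ± 0.174 SE with Smad4 on and -0.10 ± 0.17 SE with Smad4 off (edgeR adjusted p = 0.254 and 0.764). *Bbc3* with TGFβ1 in Smad4-on cells had a log2 difference of -0.17 ± 0.172 SE (edgeR adjusted p = 0.503). *Bcl2* (15.9 to 23.3 CPM) and *Bad* (22.2 to 28.3 CPM) also passed no test in either state. The median over the members was -0.02 with Smad4 on and 0.08 with Smad4 off, beside -0.02 over all genes in both. Marker sums moved with TGFβ1 as well. Fibroblast markers were 43.9 and 184 CPM in Smad4-off B87 cells (SB505124 then TGFβ1), 152 and 646 CPM in Smad4-on B87 cells, and 4.29 and 6.42 CPM or 3.99 and 8.92 CPM in those states of B73. In Smad4-on B87 cells *Col1a1* made up most of the sum and rose from 119 to 627 CPM. *Pdgfrb* fell there from 27.1 to 15.8 CPM and *Pdgfra* from 6.4 to 3.52 CPM, whereas *Pdgfrb* rose in Smad4-off B87 cells from 12.8 to 18.9 CPM. The fibroblast list thus did not move as 1 set. Of 7 tested ductal epithelial markers, 2 were called with TGFβ1 in Smad4-on cells and 1 in Smad4-off cells. With Smad4 on, TGFβ1 libraries were lower for *Cdh1* (B73 109 against 468 CPM, B87 11.5 against 80.5 CPM). The same held for *Krt19* (B73 299 against 1570 CPM, B87 153 against 728 CPM) and for the low *Epcam*. *Krt8*, *Krt18* and *Sox9* were instead higher in each line, and *Krt7* was lower in B73 and higher in B87. The part of these markers in the TGFβ1 differences was not tested.

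**Figure D3:**
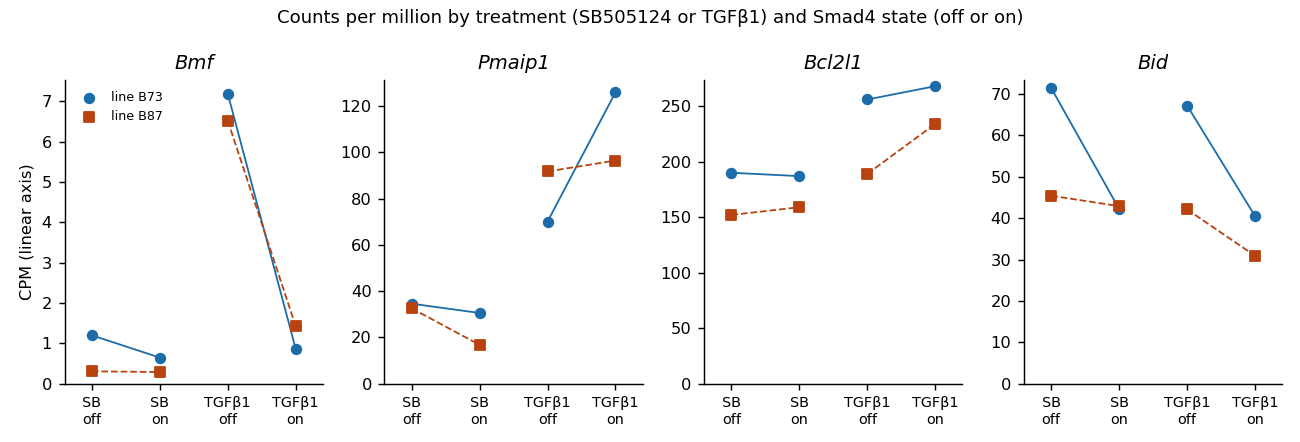
CPM (linear axes from 0) of *Bmf*, *Pmaip1*, *Bcl2l1* and *Bid* in each library, by treatment (SB505124 or TGFβ1) and Smad4 state (off or on); lines join the Smad4 states of a treatment within B73 (circles) and B87 (squares). *Bmf* stands at 7.19 and 6.52 CPM in TGFβ1-treated Smad4-off cells and at 1.43 CPM or lower elsewhere, and *Pmaip1* is higher in every TGFβ1 library than in any SB505124 library.

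Whether the Smad4 difference itself changed with treatment was tested by the interaction term. No member was called by edgeR (0 of 9 tested, 1 with an unadjusted p under 0.05) or by DESeq2 with the line (0 called), beside 0.189% of all genes. For *Bmf* the interaction was -1.89 ± 0.848 SE on the log2 scale (adjusted p = 0.504), with -2.12 in B73 and -2.06 in B87. A difference in the *Bmf* response to Smad4 between TGFβ1 and SB505124 was therefore not shown by this test, in which the SB505124 libraries held 7 to 24 counts. For *Pmaip1* it was 0.96 ± 0.361 SE (edgeR adjusted p = 0.409), with 1.02 in each line. Over the alternative fits the edgeR adjusted p of this *Pmaip1* term was as low as 0.0336, with estimates of 0.95 to 0.96, all under 2-fold. *Pmaip1* was higher in Smad4-on cells under TGFβ1 (126 against 70.1 CPM in B73, 96.5 against 91.8 CPM in B87) and lower in them under SB505124 (30.6 against 34.6 CPM, 16.8 against 32.6 CPM), and neither difference passed the edgeR test (adjusted p = 0.345 and 0.470).

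Tests between the lines have 1 line on each side, so the differently treated cultures of a line act as its replicates. Their p-values compare these cultures and do not measure variation among lines. Between the lines, averaged over the groups, no member was called by edgeR (0 of 9 tested, 3 with an unadjusted p under 0.05) or by DESeq2 (0), beside 8.37% of all genes. *Bcl2l1* was lower in B87 by 0.30 on the log2 scale in the fit (mean 184 against 225 CPM) and passed the adjusted p (edgeR, 0.0175) without reaching 2-fold. *Bid* was also lower in B87 in the fit, by 0.43 (mean 40.3 against 55.3 CPM, edgeR adjusted p = 0.0535). No member was called by edgeR for a difference between lines in the Smad4 effect (0 of 9, 2 with an unadjusted p under 0.05) or by DESeq2 (0), beside 0.392% of all genes. The unadjusted p values were 0.00984 for *Pmaip1* (edgeR, adjusted 0.272) and 0.0227 for *Bid* (edgeR, adjusted 0.389). For a difference in the TGFβ1 effect no member was called by edgeR (0 of 9, 1 with an unadjusted p under 0.05) or by DESeq2 (0), beside 0% of all genes, of which 1198 had an unadjusted p under 0.05. That member was *Bmf*, whose change averaged 1.43 in B73 and 3.01 in B87 on the log2 scale (edgeR, adjusted p = 0.563).

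Summed by role, the 7 BH3-only genes amounted to 35.4 to 73.8 CPM per kb and the 3 prosurvival genes to 94.3 to 129 CPM per kb. The ratio of the BH3-only to the prosurvival sum in B73 was 0.511 and 0.390 under SB505124 and 0.530 and 0.572 under TGFβ1 (Smad4 off then on). In B87 it was 0.434 and 0.375 under SB505124 and 0.595 and 0.504 under TGFβ1. In each line and Smad4 state the TGFβ1 library had the higher ratio. Under TGFβ1 the Smad4-on library was higher than the Smad4-off library in B73 and lower in B87, so the lines did not share a direction. *Pmaip1* contributed 6.15 to 12.6 CPM per kb to the BH3-only sum under SB505124 and 25.7 to 46.1 under TGFβ1. *Bmf*, also higher with TGFβ1 in each line and Smad4 state, contributed 1.37 at its highest. *Bid*, *Bad* and *Bbc3* were lower with TGFβ1 in each line and state, and *Bcl2l11* and *Bik* went both ways. The higher ratio is therefore not a rise shared by the BH3-only genes. The ratio adds transcripts of proteins with different partners and is given as a description, without a test.

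**Figure D4:**
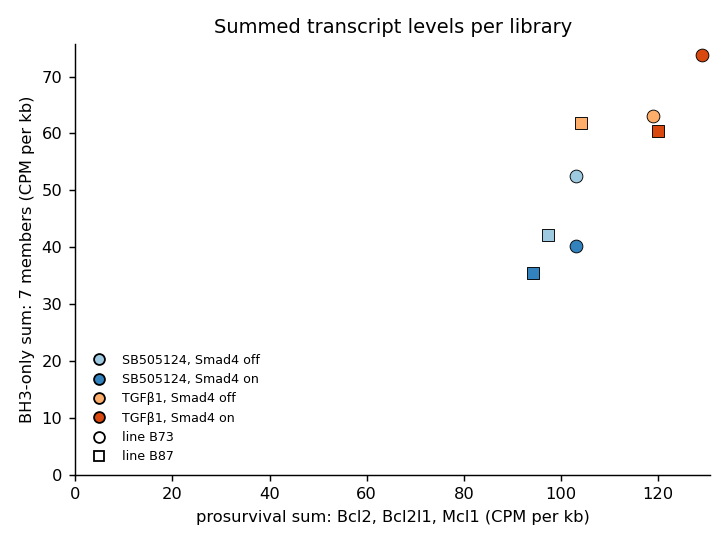
Summed CPM per kb of the 7 BH3-only genes (y axis) against that of *Bcl2*, *Bcl2l1* and *Mcl1* (x axis), 1 point per library, with color for treatment and Smad4 state and shape for the line. The TGFβ1 libraries lie at 60.5 to 73.8 CPM per kb of BH3-only genes and the SB505124 libraries at 35.4 to 52.6. *Pmaip1* alone accounts for 25.7 to 46.1 of the former and 6.15 to 12.6 of the latter.

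Of the 16 other BCL2 family genes in the table, 11 were tested. The effectors *Bax* (108 to 141 CPM), *Bak1* (50.7 to 97.0 CPM) and *Bok* (42.8 to 90.0 CPM) were all expressed, while the prosurvival genes *Bcl2a1a*, *Bcl2a1b* and *Bcl2a1d* were at 0 and *Bcl2l10* and the BH3-only gene *Hrk* had at most 2 counts. With TGFβ1 in Smad4-on cells 2 of the 11 were called higher and 1 lower, beside 13.9% of all genes called (804 higher and 1189 lower). *Bnip3*, encoding a mitophagy receptor with a BH3-like domain, rose in B73 from 2.97 to 8.82 CPM and in B87 from 6.40 to 27.6 CPM (edgeR adjusted p = 0.00753). *Bcl2l15* rose from 4.91 to 11.2 CPM and from 0.166 to 1.99 CPM (edgeR adjusted p = 0.0415). *Bcl2l14* fell from 38 and 24 counts to 1 and 0 counts, at least 9.97-fold lower against a floor of 3 counts averaged over the group (edgeR adjusted p = 0.00228). In this comparison 7 of the 11 passed the adjusted p at any size, 6 higher, among them *Bak1* (1.38-fold), *Bok* (1.78-fold) and the prosurvival *Bcl2l2* (1.59-fold), beside 33.2% of all genes. In Smad4-off cells *Bcl2l15* was the 1 called gene, higher with TGFβ1 (in B73 from 6.93 to 23.8 CPM and in B87 from 0.395 to 4.68 CPM, edgeR adjusted p = 0.0242), beside 5.93% of all genes, and 3 of the 11 passed the adjusted p, beside 13.2%. The list's median log2 change was 0.46 with Smad4 on and 0.11 with Smad4 off, beside -0.02 over all genes in both. Between Smad4 states, 0 of the 11 passed the adjusted p in either treatment, by edgeR or by DESeq2 with the line, and 4 under TGFβ1 and 2 under SB505124 had an unadjusted p under 0.05 in edgeR.

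Downstream of the mitochondria, none of 18 tested genes of the apoptosome, caspases and inhibitor of apoptosis proteins was called in the treatment or Smad4 comparisons by edgeR or by DESeq2 with the line. Unadjusted p values under 0.05 were found in edgeR for 9 of them with TGFβ1 in Smad4-on cells, 6 in Smad4-off cells, 6 with Smad4 under TGFβ1 and 1 under SB505124, beside 6266, 4106, 3396 and 1809 of all 14301 genes. With TGFβ1 in Smad4-on cells 7 of the 18 passed the adjusted p, 3 higher and 4 lower, beside 33.2% of all genes. Among them were *Casp6* (1.82-fold higher) and *Birc5*, encoding survivin (1.62-fold lower).

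On the death receptor list, 8 of 11 genes were tested. With TGFβ1 in Smad4-on cells 1 was called, beside 13.9% of all genes. This was *Cflar*, encoding the caspase-8 inhibitor c-FLIP, which rose in B73 from 105 to 214 CPM and in B87 from 104 to 225 CPM (2.10-fold, edgeR adjusted p = 0.000223). It was 1.5-fold higher with TGFβ1 in Smad4-off cells (edgeR adjusted p = 0.00559) and 1.38-fold higher with Smad4 restored under TGFβ1 (edgeR adjusted p = 0.0190), both under 2-fold. *Tnfrsf1a*, the main TNF receptor, was 1.62-fold lower and *Fadd*, the adaptor of death receptors, 1.39-fold lower with TGFβ1 in Smad4-on cells (edgeR adjusted p = 0.00249 and 0.0270).

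Of 10 tested transcription factors and regulators known to act on BH3-only genes, 3 were called with TGFβ1 in Smad4-on cells, all higher, beside 13.9% of all genes. At any size 4 of the 10 passed the adjusted p, 3 higher and 1 lower, beside 33.2% of all genes. The lower one was *Klf5* (1.91-fold, edgeR adjusted p = 0.00127), which was also 1.54-fold lower with TGFβ1 in Smad4-off cells (edgeR adjusted p = 0.0146). *Sox4*, linked to TGFβ-induced apoptosis in PDAC cells, rose in B73 from 27.0 to 184 CPM and in B87 from 30.1 to 180 CPM (6.34-fold, edgeR adjusted p = 0.000176). *Mdm2*, the p53 ubiquitin ligase, rose from 169 to 345 CPM and from 127 to 276 CPM (2.11-fold, edgeR adjusted p = 0.000358). *Snai1*, an inducer of epithelial-mesenchymal transition, rose from 0.810 to 15.1 CPM and from 16.7 to 41.7 CPM (4.87-fold, edgeR adjusted p = 0.0211). In Smad4-off cells *Sox4* was the 1 called gene, beside 5.93% of all genes, and it rose with TGFβ1 in B73 from 33.1 to 134 CPM and in B87 from 21 to 135 CPM (5.03-fold, edgeR adjusted p = 0.000969). With Smad4 restored under TGFβ1, *Mdm2* (1.58-fold), *Foxo1* (1.77-fold) and *Ddit3* (1.52-fold) were higher and passed the adjusted p under 2-fold (edgeR adjusted p = 0.0107, 0.0266 and 0.0397), beside 6.8% of all genes that passed it. Under SB505124 they were also higher with Smad4 restored, by 1.12-fold, 1.63-fold and 1.42-fold, and did not pass (edgeR adjusted p = 0.525, 0.0992 and 0.146). The differences of *Foxo1* and *Ddit3* were thus of similar size in both treatments. None of the 8 binding partners and turnover genes was called in these comparisons by edgeR or by DESeq2 with the line, with 1 to 3 of them at an unadjusted p under 0.05 in each. With TGFβ1 in Smad4-on cells *Fbxw7*, encoding a ubiquitin ligase for MCL1, was 1.78-fold higher and *Dynll2*, the light chain that binds BMF, 1.24-fold lower (edgeR adjusted p = 0.00446 and 0.0158). Between the lines 8.37% of all genes were called. Of the 11 other BCL2 family genes tested these were *Bcl2l15* (8.21-fold lower in B87) and *Bnip3* (2.12-fold higher). Of the 8 tested death receptor genes it was *Fas* (2.19-fold higher), and of the 10 regulators *Snai1* (5.28-fold higher). None was called of the 18 genes downstream of the mitochondria or of the 8 binding partners and turnover genes.

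The genes whose line-centered log2 CPM tracked *Bmf* most closely over the 8 libraries were *Gm17251* (Pearson r 0.986), *Pros1* (0.983) and *Slc39a1* (0.980). Their own ranges were narrower, at 1.03 to 1.94 CPM, 11.6 to 45.0 CPM and 82.7 to 91.2 CPM. For *Pmaip1* they were *Fgd6* (0.997, 35.6 to 79.1 CPM), *Bbs4* (0.993, 8.44 to 18.9 CPM) and *Cdc73* (0.993, 62.4 to 90.1 CPM). These are the highest values out of 14301 tested genes over libraries that share lines and treatments, and they are given as a description only.

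Some reads could not be placed by sequence alone. Of the 75-base stretches of *Bid*, 15.7% also occur in transcripts of other genes, most often of *Bcl2l13*, which overlaps it on the other strand. For *Bad* 15.9% do, most often in transcripts of *Gpr137*. For *Bcl2* the share was 4.67%, most often with an antisense transcript, and it was 0 for *Bmf*. The libraries marked strand but the counting setting was not given in the sources used here, so the levels of *Bid* and *Bad* are the less certain ones.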

How the data were processed

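RNA-seq was done on 8 libraries of PDAC lines B73 and B87, grouped by the Dox state and treatment in the sample labels. Per the labels, the authors made strand-marking poly(A) libraries and read 75 bp from a single end. The submitters' processing notes name FastQC 0.11.5, Trimmomatic 0.36, STAR 2.5.3a and featureCounts 1.6.3, with GRCm38 (mm10). The deposited table holds raw counts per gene and library. How strand and multiply aligned reads were counted is not given in the sources used here.

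Counts were tested with edgeR 4.0.16 in R 4.3.3 (TMM, filterByExpr, quasi-likelihood F-test, group and line as terms, all 8 libraries). The test code was run on counts simulated from its own fitted model. These held no variation of effects between lines, so the run says nothing on how the results here would repeat. Adjusted p values are Benjamini-Hochberg over 14301 genes, and called means under 0.05 and over 2-fold, as in the study. SE was taken as the absolute log2 change over the root of F. CPM use TMM factors. Changes within a line use log2 CPM with a prior count of 2. Lengths are exon unions from GENCODE M21. Floors of 3 counts cover counting error only. The line named in each sample title pairs the libraries, and the deviations of the lines correlated between groups with r of 0.642 to 0.774 over 6 pairs.

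The members and gene lists were chosen with earlier results of these data known, and the fall of *Bmf* with Smad4 under TGFβ1 was among those results. Text on the members covers the 9 tested in each Smad4 and treatment comparison, singly or by a range, and for the interaction and line terms only those named. Other lists are represented by up to 3 called genes with the lowest adjusted p, and genes under 2-fold were named after their values were seen. For each called member, the 3 genes with the highest Pearson r are given. Alternatives were DESeq2 1.42.0 in models that had or lacked the line, edgeR lacking it, DESeq2 size factors, other filters, no fold rule, glmTreat, only the libraries compared, and each line left out. Upstream sequences are from RefSeq (GRCm38.p6). *Pmaip1* and *Bik* had no entry used here. No protein sequence was used. An allele of the mice and a result on 1 gene of the caspase list are not reported here.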

Additional observations from a re-analysis of the deposited data

How the results depend on the processing

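No alternative reversed a called member. The sign of *Mcl1* with TGFβ1 in Smad4-off cells, -0.01 as reported, was 0.000206 in DESeq2 without the line (no replicate block), 0.00372 without a filter on low counts and 0.00444 with only the 4 libraries compared. In edgeR without the line (no replicate block), 0 members were called for Smad4 under TGFβ1 and 0 for TGFβ1 in Smad4-off cells (*Bmf* adjusted p 0.213 and 0.0973, *Pmaip1* 0.11). DESeq2 without the line kept these calls. glmTreat called 0 in both as well (*Bmf* 0.293 and 0.06, *Pmaip1* 0.879). With at least 10 counts in every library the numbers were 0 and 1, because *Bmf* was no longer tested. In Smad4-on cells, 2 were called with TGFβ1 without a filter (*Bmf* added) and 2 without the fold rule (*Bcl2l1* added), and the latter gave 1 between the lines (*Bcl2l1*).

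With 1 line left out, no degrees of freedom remain, so changes are given without a test. The fall of *Bmf* under TGFβ1 was -2.92 without B87 and -2.11 without B73, and its rise with TGFβ1 in Smad4-off cells 2.49 and 4.05. Over the other alternatives, glmTreat apart, the adjusted p of *Bmf* ran from 2.03e-05 to 0.213 for Smad4 under TGFβ1 and that of *Pmaip1* with TGFβ1 in Smad4-on cells from 1.81e-15 to 0.0107. Without division by length *Bcl2* ranks 6, *Bcl2l11* 7 and *Bbc3* 8. Depth limits *Bmf* under SB505124 (7 to 24 counts) and *Bik* in all libraries (2 to 17 counts).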
